A study of Mus musculus with 12 samples.

Results

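The cerebellum holds most of the neurons of the mouse brain, and 9 genes that mark its main neurons were followed here across 12 RNA-seq libraries. The genes are *Cbln1*, *Cbln3*, *Neurod1*, *Barhl1* and *Zic1*, which mark the granule cell lineage, and *Pcp2*, *Calb1*, *Car8* and *Itpr1*, which mark Purkinje cells. They were taken by gene symbol from the 24062 genes that the FPKM tables list, and all 9 were found in both tissues. The libraries came from *Norad*-/- brain, *Norad*+/+ brain, *Norad*-/- spleen and *Norad*+/+ spleen, with 3 libraries in each group. All mice were 10-week-old C57BL/6 males, and no treatment is named. *Norad*-/- mice lack the long noncoding RNA *Norad* in every cell from the germline on, after CRISPR/Cas9 editing in C57BL/6J that gave 3 independent lines, and the sample records do not say from which line each mouse came. The question put to these data is what changes in brain and spleen RNA when *Norad* is missing. FPKM, the unit throughout, is read coverage per length of transcript and per depth of library.

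Granule cells are small glutamatergic neurons whose parallel fibres synapse on Purkinje cells, and Purkinje cells are the GABAergic neurons that carry the output of the cerebellar cortex. The granule cell protein *Cbln1* is secreted, binds presynaptic neurexin and helps to hold that synapse together, and *Cbln3* is its partner in the secreted complex. Purkinje cells release stored calcium through the inositol trisphosphate receptor *Itpr1*, which *Car8* binds and restrains, while *Calb1* buffers the released ion. *Norad* binds the PUMILIO proteins, which repress mRNAs that carry the PUMILIO response element (PRE), UGUANAUA, in the 3′ UTR.

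The targeted gene followed the labels. *Norad*, listed as 2900097C17Rik, stood at 0.0059, 0 and 0.0121 FPKM in *Norad*-/- brain, against 206, 259 and 635 FPKM in *Norad*+/+ brain. In spleen no *Norad*-/- library exceeded 0.0173 FPKM, and the *Norad*+/+ libraries held 42.9 to 62.0. Depth, estimated from the smallest FPKM steps, was 28.6 to 36.9 M reads per brain library and 31.5 to 35.5 M per spleen library. 3 libraries need naming before the results. *Norad*+/+ brain replicate 3 had a median Spearman correlation of 0.949 with the other brain libraries, where the others had 0.973 to 0.979. The growth hormone gene *Gh*, a pituitary product, reached 984 FPKM in *Norad*-/- brain replicate 3 and at most 0.311 in the other brains. *Norad*+/+ spleen replicate 3 (median correlation 0.948, others 0.961 to 0.971) carried the exocrine pancreas gene *Ctrb1* at 80.4 FPKM and the liver gene *Alb* at 56.8.

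Where the genes lie and which sequences they carry are given first, because the promoters and PREs are the parts of these genes that a regulator could read. In GRCm38 with the GENCODE M21 annotation the granule cell genes are *Cbln1* (chr8:87468405-87472609, minus strand), *Cbln3* (chr14:55878913-55884392, minus), *Neurod1* (chr2:79452521-79456751, minus), *Barhl1* (chr2:28907679-28916668, minus) and *Zic1* (chr9:91358058-91365810, minus). The Purkinje cell genes are *Pcp2* (chr8:3623371-3625545, minus), *Calb1* (chr4:15881264-15908064, plus), *Car8* (chr4:8143362-8239041, minus) and *Itpr1* (chr6:108213096-108551109, plus). PREs were searched in the sense direction of each gene's longest annotated 3′ UTR. *Zic1* held 3, *Barhl1* held 2, *Neurod1* and *Itpr1* held 1 each, and *Cbln1*, *Cbln3*, *Pcp2*, *Calb1* and *Car8* held none. Thus 4 of 9 had at least 1 PRE, or 44.4%, where 28.2% of the 11932 genes tested in brain with such a UTR did, and the median UTR was 1949 bases in the members and 1456 in all of these genes. The 7 sites are shown because they are the elements through which *Norad* is held to act, each written as RNA with 10 bases on either side, the PRE in capitals and the coordinates of the PRE itself.
Barhl1 chr2:28909421-28909428 (-): acucgccggaUGUACAUAugcguccuug
Barhl1 chr2:28909206-28909213 (-): gcagcggagcUGUACAUAcagugugcaa
Itpr1 chr6:108549950-108549957 (+): uuaguacauuUGUAAAUAcucaguuuug
Neurod1 chr2:79453133-79453140 (-): ugcacaagcuUGUAAAUAcauauuauaa
Zic1 chr9:91361148-91361155 (-): uuuguuuucuUGUAAAUAcagaauuauu
Zic1 chr9:91361105-91361112 (-): uguuggauucUGUAUAUAgcuacacuuc
Zic1 chr9:91360666-91360673 (-): aaccacacaaUGUAUAUAauuccuaguu

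The promoters of 5 of the 9 genes were matched by symbol in RefSeq (GRCm38.p6), as the 250 bases before and 50 after a start site. They were searched on both strands for AGGTCA, a half-site of nuclear receptors such as Rora, and for CAGATG, one form of the E-box that proneural factors such as Neurod1 bind. Over all 32851 promoters of the same length, 16.3% held AGGTCA and 17.2% held CAGATG. *Pcp2* carried both and *Barhl1* carried AGGTCA on the opposite strand, where it reads TGACCT, while the promoters of *Cbln3*, *Neurod1* and *Zic1* held neither. A match describes letters only. The 2 promoters below are those of *Pcp2* and *Barhl1*, the members with the widest spread within a genotype, with the motifs in capitals. Each is the outermost of the start sites listed, 4 for *Pcp2* and 2 for *Barhl1*. The shares above are per promoter, so these genes had several searches each. The *Pcp2* promoter at chr8:3625423-3625722 overlaps the one shown and holds the same sites. The *Pcp2* promoter at chr8:3624987-3625286 held AGGTCA only. Neither motif was found in *Pcp2* chr8:3625233-3625532 or in *Barhl1* chr2:28912446-28912745.
Pcp2 chr8:3625498-3625797 (-): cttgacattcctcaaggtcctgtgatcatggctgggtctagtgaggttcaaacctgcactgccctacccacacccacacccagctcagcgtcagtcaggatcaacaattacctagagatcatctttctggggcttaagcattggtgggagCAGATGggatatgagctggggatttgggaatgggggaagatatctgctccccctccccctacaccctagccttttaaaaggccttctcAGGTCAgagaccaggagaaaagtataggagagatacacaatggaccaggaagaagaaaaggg
Barhl1 chr2:28916619-28916918 (-): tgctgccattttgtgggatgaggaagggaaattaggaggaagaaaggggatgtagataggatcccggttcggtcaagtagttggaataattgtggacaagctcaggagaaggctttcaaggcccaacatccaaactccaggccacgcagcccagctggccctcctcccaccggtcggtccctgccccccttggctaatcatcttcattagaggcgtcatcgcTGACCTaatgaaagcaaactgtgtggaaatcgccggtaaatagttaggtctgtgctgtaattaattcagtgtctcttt
In *Pcp2* the AGGTCA begins 12 bases and the CAGATG 100 bases before the start site, and in *Barhl1* the motif begins 28 bases before it.

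In brain 8 of the 9 genes had means between 55.5 and 114 FPKM. Their means over 6 libraries were 114 FPKM for *Calb1*, 98.9 for *Zic1*, 94.0 for *Cbln1*, 86.1 for *Itpr1*, 77.3 for *Car8*, 64.4 for *Cbln3*, 59.1 for *Pcp2* and 55.5 for *Neurod1*. *Barhl1*, a homeodomain factor of the granule cell lineage, was far lower, at 1.03. Most neighbours in this order were not separated by the spread between libraries. *Calb1* was above *Zic1* in 4 of 6 libraries, *Zic1* above *Cbln1* in 3, *Cbln1* above *Itpr1* in 3, and *Cbln3* above *Pcp2* in 4. Only *Car8* over *Cbln3* and *Neurod1* over *Barhl1* held in all 6. Defining markers of the tissue were therefore present in every brain library, as were 50.2 ± 11.1 FPKM of *Gabra6*, the granule cell GABA-A subunit, in *Norad*-/- and 56.3 ± 15.7 in *Norad*+/+ brain (SD, n = 3 each).

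**Figure D1:**
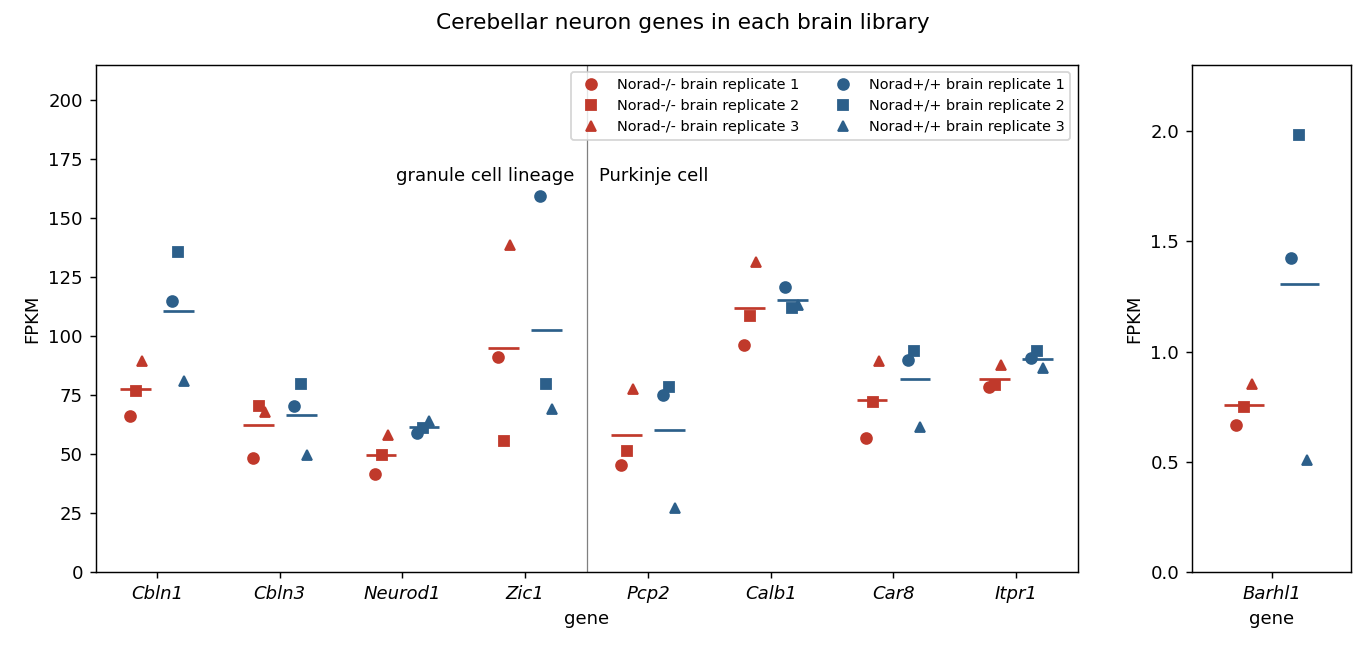
FPKM of the 9 genes in each brain library, with *Norad*-/- in red on the left of each gene and *Norad*+/+ in blue on the right. Symbols mark the replicate, horizontal lines the mean of 3 libraries, and *Barhl1* has an axis of its own. The triangle of *Norad*+/+ replicate 3 is the lowest blue point in every gene but *Neurod1* and *Calb1*, and only in *Neurod1* do the groups not overlap.

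No member passed the test between genotypes in brain, and the smallest p belonged to *Cbln1* and *Neurod1*, whose means were lower in *Norad*-/-. Log2 fold changes of *Norad*-/- against *Norad*+/+ were fitted by limma on log2(FPKM + 0.1) over the 13051 genes that averaged 1 FPKM or more, and p was adjusted over all of them at a threshold of 0.05. By that rule 2 genes passed, 0.0153% of those tested, and 0 of the 9 members did. At an unadjusted limma p under 0.05 the counts were 864 genes and again 0 members. *Barhl1* passed the filter only through its *Norad*+/+ libraries, so the counts that follow leave it out unless all 9 members are named. Of the other 8 members 7 had a fold change below 0, where 44.9% of all genes did, and their median was -0.13 beside 0.02 for all genes. Groups did not overlap, with *Norad*-/- lower, in 1 of the 8, *Neurod1*, and in 6.56% of all genes. In whole brain, fewer cells of a type and less RNA per cell cannot be told apart.

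Among the granule cell genes, *Cbln1* had 66.0, 76.7 and 89.7 FPKM in *Norad*-/- brain, against 115, 136 and 80.8 in *Norad*+/+ brain. The *Norad*+/+ replicates 1 and 2 lay above every *Norad*-/- library, and replicate 3 lay inside the *Norad*-/- range, so that the groups overlapped by that library alone. The log2 fold change was -0.49 (standard error 0.22, 95% interval -1.02 to 0.04, limma adjusted p = 0.718). *Cbln3*, which needs *Cbln1* to leave the cell, had 48.2, 70.3 and 68.0 FPKM in *Norad*-/- brain, against 70.2, 79.9 and 49.6 in *Norad*+/+ brain. The lowest library of each group lay close to that of the other, and the fold change was -0.09 (standard error 0.23, interval -0.65 to 0.46).

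*Neurod1*, a proneural transcription factor that granule cells keep expressing as adults, had 41.3, 49.4 and 58.1 FPKM in *Norad*-/- brain, against 58.9, 61.0 and 64.2 in *Norad*+/+ brain. The groups did not overlap, but the highest *Norad*-/- and the lowest *Norad*+/+ library were close, and *Norad*-/- brain varied more (49.6 ± 8.38 FPKM, against 61.3 ± 2.66 in *Norad*+/+ brain, SD, n = 3 each). The fold change was -0.32 (standard error 0.14, interval -0.66 to 0.03, limma adjusted p = 0.718). *Neurod1* was also the member in which *Norad*+/+ replicate 3 was the highest library. *Neurod1* is expressed outside the cerebellum too, in hippocampal and cortical neurons.

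*Barhl1* had 0.665, 0.750 and 0.853 FPKM in *Norad*-/- brain, against 1.43, 1.98 and 0.506 in *Norad*+/+ brain. 2 of the *Norad*+/+ libraries were above all *Norad*-/- libraries and replicate 3 was below them all. The fold change was -0.54 with a standard error of 0.45 (limma adjusted p = 0.762). *Zic1*, a zinc finger factor of granule cell precursors and of dorsal midline tissue and meninges, had 91.1, 55.4 and 139 FPKM in *Norad*-/- brain, against 159, 79.8 and 69.1 in *Norad*+/+ brain. Both groups spread over more than the difference between them, and the fold change was -0.11 (standard error 0.43, interval -1.15 to 0.94). *Zic1* differed from the other granule cell genes in its order across libraries, with *Norad*-/- replicate 2 the lowest of the 6.

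Among the Purkinje cell genes, *Pcp2*, a modulator of G protein signalling found almost solely in Purkinje and retinal bipolar cells, had 45.5, 51.5 and 77.4 FPKM in *Norad*-/- brain, against 75.1, 78.3 and 27.0 in *Norad*+/+ brain. Replicate 3 of each genotype stood apart from its group, high in *Norad*-/- and low in *Norad*+/+. *Pcp2* was the sole member with a fold change above 0, at 0.06, and its interval of -1.01 to 1.14 covers a doubling in either direction. *Car8*, a carbonic anhydrase homologue without the enzyme activity, had 56.9, 72.3 and 89.4 FPKM in *Norad*-/- brain, against 90.1, 93.7 and 61.3 in *Norad*+/+ brain. Its libraries fell in nearly the same order as those of *Pcp2*, with a fold change of -0.16 (standard error 0.23).

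*Calb1*, which is also made by hippocampal and cortical neurons, had 96.3, 109 and 131 FPKM in *Norad*-/- brain, against 121, 112 and 113 in *Norad*+/+ brain. The *Norad*+/+ values lay inside the *Norad*-/- range, and the fold change was -0.05 (interval -0.39 to 0.28). *Itpr1* had 78.5, 79.5 and 87.8 FPKM in *Norad*-/- brain, against 90.6, 93.8 and 86.4 in *Norad*+/+ brain. The groups overlapped by *Norad*-/- replicate 3 and *Norad*+/+ replicate 3 only, and the fold change was -0.14 (standard error 0.10, interval -0.38 to 0.10, limma adjusted p = 0.741). The adjusted p of all 9 members lay between 0.718 and 0.967 in this limma fit. When genes were shifted by 1 log2 unit in simulated brain libraries of this number, limma called 55.5% of them, so smaller differences would often be missed.

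The members covered a wide range of spread within a genotype. The SD within a genotype on the log2 scale was 0.08 for *Itpr1*, smaller than in all but 10.0% of genes, then 0.16 for *Calb1* and 0.18 for *Neurod1*, near the median of 0.19 over all genes. It was 0.31 for *Cbln1* and 0.33 for *Cbln3* and for *Car8*, and 77.5% to 80.1% of genes had smaller values. At the other end it was 0.65 for *Zic1*, 0.66 for *Barhl1* and 0.68 for *Pcp2*, and 96.2% to 96.6% of genes lay below them. *Itpr1*, *Calb1* and *Neurod1* are also expressed by forebrain neurons, and *Zic1* is expressed outside the cerebellum too. Whether this bears on the spread of these genes was not tested. The wide spread of *Zic1*, *Barhl1* and *Pcp2* set the width of their intervals.

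The libraries were ordered in much the same way by most members, with *Barhl1* counted here. *Norad*-/- replicate 1 was the lowest or next to lowest library for 8 of 9 members and the lowest for 6. *Norad*+/+ replicates 1 and 2 were among the top 2 for 6 and 7 members. *Norad*+/+ replicate 3 was among the bottom 2 for 5, and *Norad*-/- replicate 3 for 0. After each gene was centred on its own mean, the median over the 9 members was -0.39, -0.11 and 0.10 in *Norad*-/- replicates 1, 2 and 3, against 0.25, 0.30 and -0.31 in *Norad*+/+ replicates 1, 2 and 3. The same medians over all genes tested lay between -0.04 and 0.06. Members measured in one library share its tissue and its depth, so their common order is 1 observation per library and not 9.

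**Figure D2:**
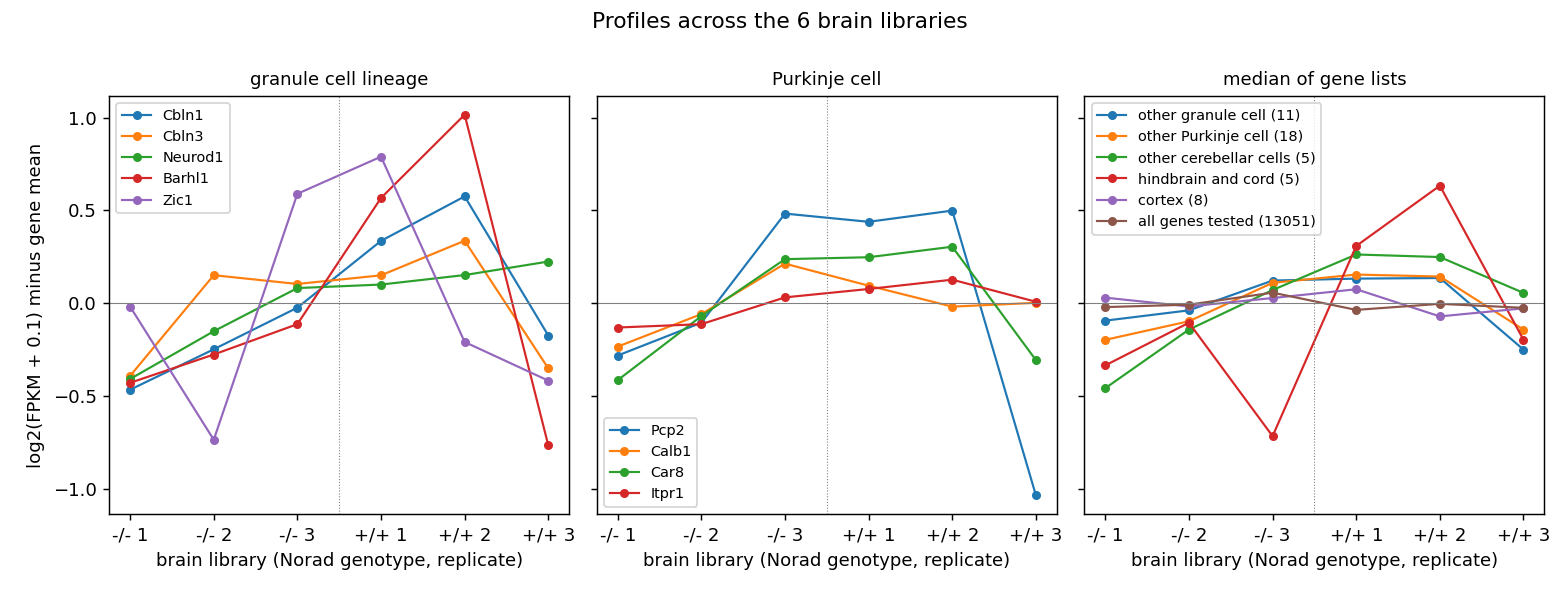
Log2(FPKM + 0.1) of each gene minus its mean over the 6 brain libraries, for granule cell genes, Purkinje cell genes and, on the right, the median over gene lists (tested genes in parentheses), with *Norad*-/- libraries on the left of the dotted line and *Norad*+/+ on the right. Lines only join the points of 1 gene or list. Most members and the other cerebellar lists are low in *Norad*-/- replicate 1 and high in *Norad*+/+ replicates 1 and 2, where the cortex list and all genes stay near 0.

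The lists of other cerebellar genes were all lower in *Norad*-/- replicates 1 and 2 than in *Norad*+/+ replicates 1 and 2, and they differed in where *Norad*+/+ replicate 3 fell. For the list of 13 other granule cell genes, of which 11 were tested, the median of the centred values was -0.09, -0.04 and 0.12 in *Norad*-/- replicates 1 to 3, against 0.13, 0.14 and -0.25 in *Norad*+/+ replicates 1 to 3. For 18 other Purkinje cell genes tested it was -0.20, -0.10 and 0.11 in *Norad*-/- brain, against 0.15, 0.14 and -0.14 in *Norad*+/+ brain. For the 5 tested genes of other cerebellar cells it was -0.46, -0.14 and 0.07 in *Norad*-/- brain, against 0.26, 0.25 and 0.06 in *Norad*+/+ brain. The list of 8 cortical genes stayed between -0.07 and 0.08 in all 6 libraries. Not every list outside the cerebellum was as flat. Medians ranged from -0.27 to 0.23 for striatum, -0.22 to 0.34 for olfactory bulb and -0.26 to 0.34 for meninges. Those of thalamus (-0.16 to 0.11) and myelin (-0.08 to 0.13) moved less.

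Between genotypes, 0 genes of these 3 cerebellar lists passed the adjusted limma threshold. Among the other granule cell genes 5 of 11 had a fold change below 0 (median 0.00), where 44.9% of all genes did. In this list 2 reached an unadjusted limma p under 0.05, both lower in *Norad*-/-, as did 2.89% of all genes in that direction. These were *Grin2c*, the NMDA receptor subunit of mature granule cells, at 14.3 ± 0.991 FPKM in *Norad*-/- and 18.04 ± 1.03 in *Norad*+/+ brain (SD, n = 3 each, limma log2 fold change -0.33, adjusted p = 0.690), and *Mab21l1*, at 4.69 ± 0.431 FPKM in *Norad*-/- and 6.73 ± 1.5 in *Norad*+/+ brain (-0.49, adjusted p = 0.710 from limma). The next of the list by p, the GABA-A subunit *Gabrd* and the transcription factor *Pax6*, had fold changes of 0.16 and 0.12. Among the other Purkinje cell genes 16 of 18 were below 0, where 44.9% of all genes were, with a median of -0.12. The smallest p belonged to the LIM homeobox factor *Lhx5*, at 1.33 ± 0.0424 FPKM in *Norad*-/- and 1.79 ± 0.337 in *Norad*+/+ brain (limma adjusted p = 0.718), and *Lhx1* had a fold change of -0.33.

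*Rora*, the nuclear receptor whose loss stops Purkinje cell maturation in staggerer mice, had 5.04, 8.652 and 2.23 FPKM in *Norad*-/- brain, against 16.3, 11.3 and 5.68 in *Norad*+/+ brain. Its libraries did not follow those of the members, since *Norad*-/- replicate 3 was the lowest, and *Rora* is also abundant in thalamus. Its fold change was -1.13 with a standard error of 0.57 (limma adjusted p = 0.718). Of the genes of other cerebellar cells, all 5 tested were below 0 with a median of -0.40, where 44.9% of all genes were below 0. An unadjusted limma p under 0.05 was reached on the lower side by 2.89% of all genes and by 3 of these 5. These were *Tfap2b* and *Pax2*, factors of GABAergic interneurons and their precursors, and *En2*, the engrailed factor of the midbrain and cerebellum. *Tfap2b* had 1.95, 2.39 and 2.5 FPKM in *Norad*-/- brain, against 3.13, 2.97 and 2.98 in *Norad*+/+ brain, groups that did not overlap, with a fold change of -0.40 (limma adjusted p = 0.690). The fold changes of *Pax2*, *En2* and the Bergmann glia gene *Gdf10* were -0.54, -0.54 and -0.24.

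No synaptic partner of the cerebellins and no gene of the calcium pathway of the Purkinje cell passed the test. Of 9 genes of the cerebellin list, 5 were below 0 (median -0.02) and none reached an unadjusted limma p under 0.05. Their summed level was 154 to 161 FPKM in *Norad*-/- brain and 164 to 180.2 FPKM in *Norad*+/+ brain, sums that did not overlap. The neurexin *Nrxn2* had a fold change of -0.28, *C1ql1*, the climbing fibre ligand of the same protein superfamily, -0.24, and the postsynaptic receptor *Grid1* 0.12. Of the 13 genes around *Itpr1*, 11 were below 0, where 44.9% of all genes were, with a median of -0.08. Their summed level overlapped, at 538 to 549 FPKM in *Norad*-/- brain and 518 to 583 FPKM in *Norad*+/+ brain. They include the phospholipase *Plcb4* (-0.20), which acts before *Itpr1*, the paralogue *Itpr2* (-0.20), and the ryanodine receptor *Ryr1* (-0.20), and none reached an unadjusted limma p under 0.05.

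A single library decided several of these values. Without *Norad*+/+ brain replicate 3, all 8 members other than *Barhl1* had a fold change below 0, with a median of -0.32, beside 0.03 for all genes. Still 0 of 9 members passed the adjusted limma threshold, which 0.115% of all genes did. *Cbln1* then had a fold change of -0.70 (interval -1.09 to -0.31, limma adjusted p = 0.327) and was the 1 of these 8 members with an unadjusted limma p under 0.05, which 5.01% of all genes had on the lower side. *Barhl1* had -1.06 (interval -1.54 to -0.59, limma adjusted p = 0.234), a value that the filter conditions. *Pcp2* turned to -0.44 (standard error 0.23), *Car8* had -0.36, and *Neurod1*, *Calb1* and *Itpr1* moved little, to -0.29, -0.06 and -0.17. Groups did not overlap, with *Norad*-/- lower, in 4 of the 8, *Cbln1*, *Neurod1*, *Car8* and *Itpr1*, and in 13.6% of all genes.

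**Figure D3:**
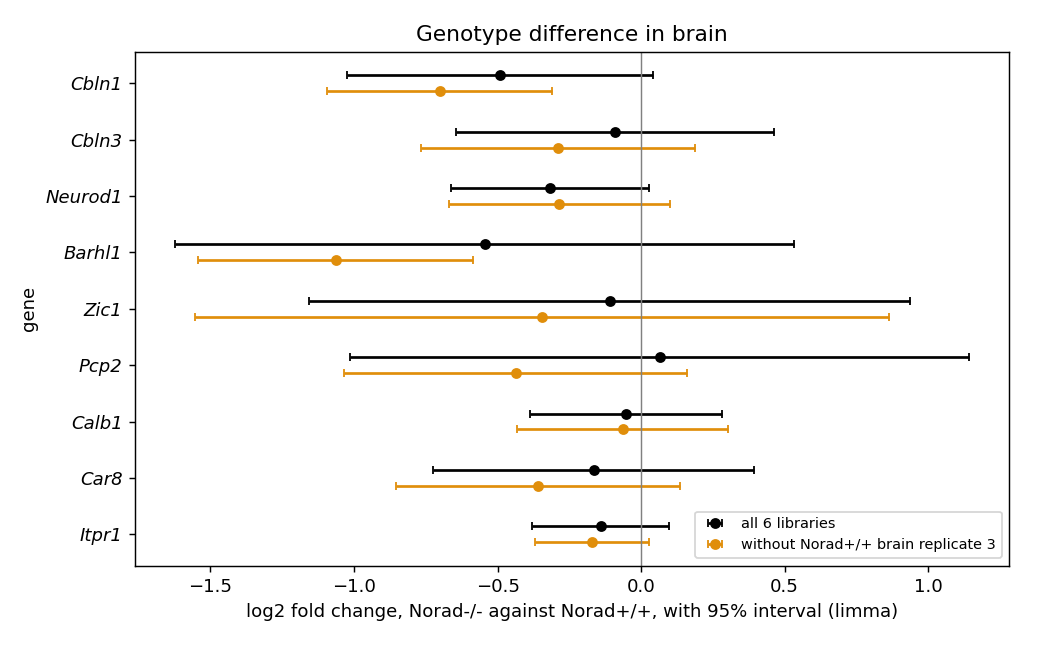
Log2 fold change of *Norad*-/- against *Norad*+/+ brain for each gene with its 95% limma interval, over all 6 libraries (black) and without *Norad*+/+ brain replicate 3 (orange). All but *Pcp2* lie left of 0 with 6 libraries, every interval then crosses 0, and without that library those of *Cbln1* and *Barhl1* do not.

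Without replicate 3 of both genotypes, which leaves 2 libraries each and drops the one with the *Gh* signal too, the 8 members other than *Barhl1* lay further below 0, with a median of -0.46 beside 0.01 for all genes. Groups did not overlap in 6 of these 8, all lower in *Norad*-/-, and in 23.2% of all genes with the same direction, and again 0 members passed the adjusted limma threshold (adjusted p of 0.196 to 0.558). *Pcp2* then had a fold change of -0.66 (standard error 0.08) and *Car8* -0.52 (0.13). In the opposite direction, *Cbln3*, *Calb1* and *Car8* rested on *Norad*-/- replicate 1: without it their fold changes were 0.08, 0.05 and 0.00. That of *Zic1* was 0.26 without *Norad*+/+ replicate 1 and 0.23 without *Norad*-/- replicate 2, and that of *Cbln3* was 0.05 without *Norad*+/+ replicate 2. *Cbln1*, *Neurod1*, *Barhl1* and *Itpr1* stayed below 0 whichever of the 6 libraries was left out.

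Markers of other regions and of the pituitary also varied between libraries. The 8 markers of hindbrain and spinal cord summed to 11.3 to 21.0 FPKM in *Norad*-/- brain and 15.7 to 32.0 in *Norad*+/+ brain, with none of the 8 listed at 0. Their centred median was -0.33, -0.10 and -0.72 in *Norad*-/- replicates 1 to 3, against 0.31, 0.63 and -0.20 in *Norad*+/+ replicates 1 to 3, so that *Norad*+/+ replicates 1 and 2 were high in this list as in the members. The 7 pituitary markers summed to 1339 FPKM in *Norad*-/- replicate 3 and to 0.808 to 1.48 in the other 5 brain libraries. The 8 cortical markers summed to 137 to 146 FPKM in *Norad*-/- brain and 162 to 236 in *Norad*+/+ brain, but without *Neurod6* the other 7 summed to 84.5 to 91.9 FPKM in *Norad*-/- and 79.8 to 91.5 FPKM in *Norad*+/+ brain. The part of dissection in the values of the members was not tested.

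Relative to each other within a library, *Cbln1* and *Cbln3* did separate by genotype. The FPKM of *Cbln1* divided by that of *Cbln3* was 1.37, 1.09 and 1.32 in *Norad*-/- brain, against 1.64, 1.70 and 1.63 in *Norad*+/+ brain. *Norad*+/+ replicate 3, low in both genes, had the same ratio as the other *Norad*+/+ libraries, and all 3 *Norad*-/- libraries were lower. Of all other genes tested in brain, 0.636% had a ratio to *Cbln3* that was lower in *Norad*-/- without overlap. The ratio was chosen after the values were seen, so this is a description. The ratio of *Pcp2* to *Car8* was 0.801, 0.713 and 0.866 in *Norad*-/- brain, against 0.834, 0.836 and 0.440 in *Norad*+/+ brain, where only *Norad*+/+ replicate 3 stood apart. That of *Zic1* to *Cbln3* ranged between 0.788 and 2.04 in *Norad*-/- and between 0.998 and 2.27 in *Norad*+/+ brain.

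The genes whose centred profile over the 6 brain libraries was nearest to a member's were ranked by the root mean square difference on the log2 scale among 13050 genes. Nearest to *Cbln3* were *Dap3*, *Fam20a*, *Abr*, *Mthfd2* and *Slc32a1*, the vesicular GABA transporter, at 0.06 to 0.09. *Car8* was the 16th, at 0.12, while *Cbln1* ranked 1330. Nearest to *Pcp2* were *Hes3*, *Gm5083*, *Gpr37l1*, *Htr1b* and *Acy3*, at 0.13 to 0.19. *Gpr37l1*, a receptor of Bergmann glia and astrocytes, had 70.9, 76.2 and 101 FPKM in *Norad*-/- brain, against 86.5, 92.9 and 32.1 in *Norad*+/+ brain, low in the same library as *Pcp2*. Of the members, *Car8*, *Barhl1* and *Cbln3* came nearest to *Pcp2*, at ranks 342, 508 and 603. The ranks rest on 6 libraries and describe these libraries only.

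The number of PREs and the genotype difference did not line up among so few genes. *Zic1*, with 3 PREs, had a fold change of -0.11, *Barhl1*, with 2, -0.54, and *Neurod1* and *Itpr1*, with 1 each, -0.32 and -0.14. *Cbln1*, with no PRE and 1 site of the relaxed form, had -0.49. The 4 members with a PRE, *Barhl1* included, had a median fold change of -0.23 and the 5 without one -0.09. All genes tested in brain with an annotated 3′ UTR had 0.02 with and 0.03 without a PRE. Without *Barhl1*, whose value the filter conditions, the median of the members with a PRE was -0.14, the value of *Itpr1*. Which 3′ UTR each cell used was not measured, and no test was made over the members.

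In spleen, which has no cerebellar neurons, only *Itpr1* passed the filter of 1 FPKM. *Itpr1* had 13.6, 14.01 and 11.98 FPKM in *Norad*-/- spleen, against 14.3, 11.8 and 10.8 in *Norad*+/+ spleen. The groups overlapped, and the fold change was 0.11 (standard error 0.13, interval -0.20 to 0.42, limma adjusted p = 0.661), where 0.0323% of the 12397 genes tested in spleen passed. It was 0.02 without *Norad*+/+ replicate 3, 0.22 without *Norad*+/+ replicate 1 and 0.23 after scaling to TPM, and did not pass in any of these fits. Calcium release through *Itpr1* also serves lymphocytes, and its spleen level was 12.6% to 16.6% of its brain mean. The genotype difference of *Itpr1* was 0.25 lower in brain than in spleen on the log2 scale, a difference that did not pass (limma interaction -0.25, standard error 0.16, interval -0.60 to 0.11, adjusted p = 0.520). The interaction was -0.16 without *Norad*+/+ spleen replicate 3 (limma adjusted p = 0.734) and -0.36 without *Norad*+/+ spleen replicate 1 (limma adjusted p = 0.216).

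The other 8 members were at 1.502 FPKM or less in every spleen library, and 7 of them were highest in *Norad*+/+ spleen replicate 3. *Neurod1* was listed at 0 in all 3 *Norad*-/- spleens, against 0.0759, 0 and 0.601 FPKM in *Norad*+/+ spleens. *Zic1* had 0, 0 and 0.00835 FPKM in *Norad*-/- spleen, against 0.0941, 0 and 0.814 in *Norad*+/+ spleen. *Calb1* had 0, 0 and 0.00976 FPKM in *Norad*-/- spleen, against 0.0870, 0 and 0.698 in *Norad*+/+ spleen. The 3 genes followed one pattern, with values in *Norad*+/+ replicates 3 and 1 and next to none in the other 4 libraries, and the largest of them stood for at most about 55.6 reads of *Neurod1*, 154.8 of *Zic1* and 99.9 of *Calb1*.

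*Cbln1* had 0.249, 0.279 and 0.313 FPKM in *Norad*-/- spleen, against 0.607, 0.445 and 1.502 in *Norad*+/+ spleen. *Pcp2* had 0.112, 0.153 and 0.171 FPKM in *Norad*-/- spleen, against 0.419, 0.235 and 1.02 in *Norad*+/+ spleen. *Car8* had 0.101, 0.0391 and 0.143 FPKM in *Norad*-/- spleen, against 0.230, 0.165 and 0.695 in *Norad*+/+ spleen. In these 3 of 8 genes the groups did not overlap and *Norad*-/- was lower, as in 9.84% of the 7294 genes under the filter with a value above 0. *Cbln3* had 0.0325 to 0.621 FPKM and *Barhl1* 0.00856 to 0.0333 FPKM over the 6 spleens, the second resting on at most about 4.0 reads, and neither separated the groups.

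The spleen values were set beside those of genes abundant in brain and nearly absent from *Norad*-/- spleen. The set held 106 genes with a brain mean over 50 FPKM and a *Norad*-/- spleen mean under 0.05, among them *Neurod1*, *Zic1* and *Calb1*. In *Norad*+/+ spleen replicate 3 these genes stood at a median of 0.837% of their brain mean, and 105 of the 106 were highest in that library. The exception was *Norad* itself, which the choice by *Norad*-/- spleens lets in. The median was 0.101% in *Norad*+/+ spleen replicate 1 and 0.0113% in *Norad*+/+ spleen replicate 2, while the low values of the *Norad*-/- spleens follow from how the set was chosen. The members other than *Itpr1* and *Barhl1* stood at 0.614% to 1.72% of their brain mean in *Norad*+/+ replicate 3. *Neurod1*, *Zic1* and *Calb1* belong to the set, so they give no separate comparison with it. Outside the set, *Cbln3* at 0.965% and *Car8* at 0.899% lay below its upper quartile of 1.041% in that library. *Cbln1* at 1.597% and *Pcp2* at 1.72% lay above that quartile. In *Norad*+/+ spleen replicate 2 *Cbln1* was at 0.473%, *Pcp2* at 0.397% and *Car8* at 0.213% of the brain mean, against 0.265% to 0.333%, 0.189% to 0.289% and 0.0506% to 0.185% in *Norad*-/- spleens. The pancreatic markers, 8 in the list, summed to 187 FPKM in *Norad*+/+ replicate 3 and to at most 0.550 in the other 5 spleens. The source of the brain genes in that library was not tested.

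**Figure D4:**
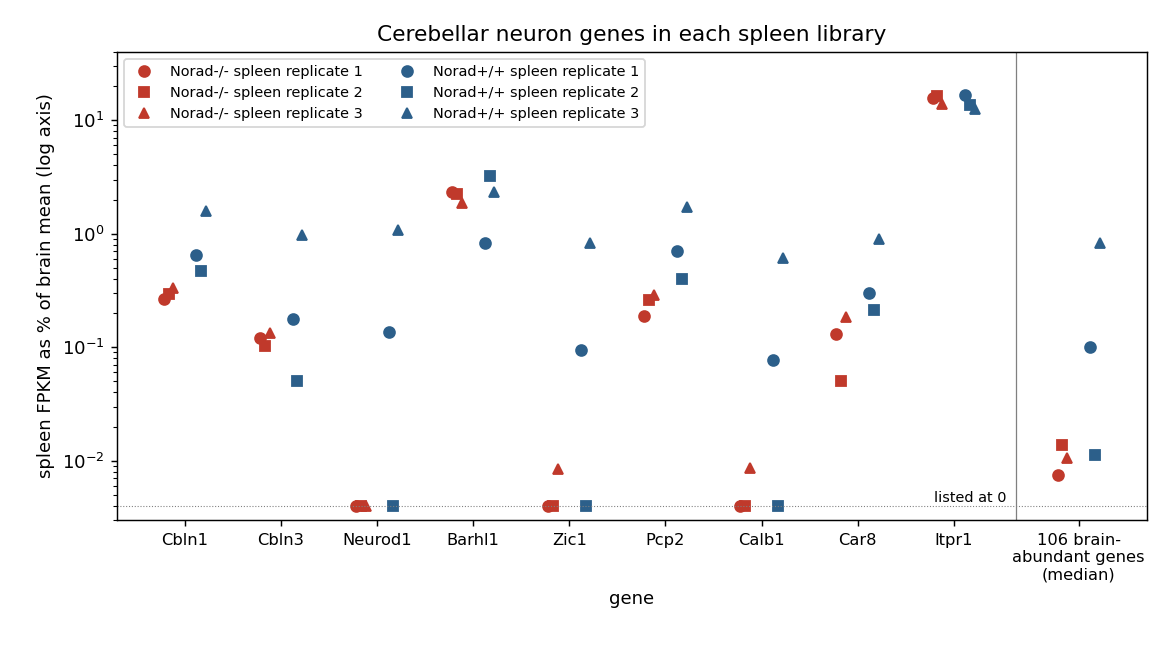
FPKM of the 9 genes in each spleen library as a percent of the gene's brain mean, on a log axis, with *Norad*-/- in red on the left and *Norad*+/+ in blue on the right. The last column gives the median over 106 brain-abundant genes, chosen for low values in *Norad*-/- spleens, and points on the dotted line are listed at 0. *Norad*+/+ replicate 3 lies at 0.837% in the last column and highest for 7 of the 9 genes, and *Itpr1* lies at 12.6% to 16.6% in all 6 spleens.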

How the data were processed

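RNA-seq of poly(A) RNA (stranded, 75-bp single reads) was analysed for 12 libraries, 3 per genotype and tissue. The authors aligned reads to GRCm38 with TopHat2 2.0.12 and, for their own test, counted them with featureCounts 1.4.6 and used edgeR 3.8.6. The deposited values are FPKM, for which the submitters' processing notes name StringTie 1.2.2. These are not read counts, so limma 3.58.1 (R 4.3.3, variance trend) was fitted per tissue to log2(FPKM + 0.1), which understates changes of low genes, over genes that averaged 1 FPKM or more, with Benjamini-Hochberg adjustment at 0.05. The tissue tables were normalized separately, so levels were not tested across them. The interaction used 10481 genes that passed in both. Depth was estimated from the FPKM of 1 read (44.5% to 49.4% of values up to 0.1 FPKM were whole reads within 2%), so counts of reads are approximate. The tables hold 0 value columns of no sample.

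Each library is a separate sample. The methods name 3 mice of each genotype, and both tissues may have been taken from the same 6 animals. The records do not pair them, and the interaction treats the libraries as separate, while p-values measure the spread between these samples. The members and gene lists were chosen with earlier results of these data known. Named genes were the 9 members, up to 4 of each other list with the smallest p in brain, the 5 nearest in profile to *Cbln3* and to *Pcp2*, *Norad*, and *Gh*, *Ctrb1* and *Alb* as marks of libraries. Genes that are withheld are not reported here. *Gabra6* and the ratios were added after values were seen. The fit was tested on simulated data with 200 genes moved. Alternatives were other pseudocounts, filters and scalings, no trend, a block by replicate number and leaving out libraries. Tables were made with Python 3.11.15 and pandas 2.3.3, and figures with matplotlib 3.10.9.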

Additional observations from a re-analysis of the deposited data

How the results depend on the processing

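The call of 0 members in brain and in spleen held under all 15 brain and 14 spleen alternatives, and the *Itpr1* interaction stayed below 0 and unpassed under all 15 of its own (adjusted limma p of 0.216 to 0.734). Directions changed only where libraries were left out. In brain, leaving out *Norad*-/- replicate 1 turned *Cbln3*, *Calb1* and *Car8* to 0.082, 0.051 and 0.0020. *Cbln3* was 0.055 without *Norad*+/+ replicate 2, and *Zic1* was 0.23 and 0.26 when *Norad*-/- replicate 2 or *Norad*+/+ replicate 1 was dropped. *Pcp2* turned to -0.16 without *Norad*-/- replicate 3, -0.44 without *Norad*+/+ replicate 3 and -0.66 without both. Over single libraries left out, the ranges of these genes were -0.29 to 0.082 for *Cbln3*, -0.43 to 0.26 for *Zic1*, -0.44 to 0.33 for *Pcp2* and -0.36 to 0.0020 for *Car8*. With the fit without both replicate 3 libraries included, *Cbln1* ranged from -0.81 to -0.33, *Neurod1* from -0.44 to -0.19, *Barhl1* from -1.14 to -0.17 and *Itpr1* from -0.22 to -0.11. The cause was not tested.

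The count of all genes called moved more. In brain it was 2, 10 with no filter, and 1 to 25 without libraries (15 without *Norad*+/+ replicate 3, 25 without replicate 3 of both genotypes). In spleen it was 4, 17 with no filter, 2 with TPM scaling, 2 with quantile normalization, and 2 to 93 when 1 library was dropped (93 for *Norad*-/- replicate 3, 20 for *Norad*+/+ replicate 1). With a block by replicate number 1 gene was called in brain and 1 in spleen, and no member. The numbers were not taken to pair the samples, since same-numbered brain libraries deviated together only weakly (r = 0.061, 0.068 and 0.110), although every brain library correlated best with its own number. In spleen r was 0.338, -0.147 and 0.290.

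*Barhl1* sits at the filter and was not tested at a minimum of 5 FPKM. With 3 libraries per genotype, differences under about 1 on the log2 scale were often not detectable.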

Other observations

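Some genes of other brain regions had larger fold changes between genotypes than the cerebellar members, and none of them passed the test. *Hoxb5*, a homeobox gene of the hindbrain and spinal cord, had 1.87, 2.27 and 1.61 FPKM in *Norad*-/- brain, against 3.18, 4.32 and 2.87 in *Norad*+/+ brain, with no overlap (log2 fold change -0.81, limma adjusted p = 0.623). *Hoxa5* and *Hoxc4* had fold changes of -0.83 and -0.83, and the median of the 5 tested hindbrain and cord genes, *Hoxa5* included, was -0.81. *Hoxa5* averaged 0.969 FPKM in *Norad*-/- and 1.78 in *Norad*+/+ brain. It thus passed the filter only through its *Norad*+/+ libraries, which conditions its value and that median. *Neurod6*, a relative of *Neurod1* in forebrain pyramidal neurons, had 54.3, 52.1 and 57.9 FPKM in *Norad*-/- brain, against 95.6, 82.2 and 157 in *Norad*+/+ brain (fold change -0.97, limma adjusted p = 0.625). Its highest library was *Norad*+/+ replicate 3, as for *Neurod1*. Of the 8 cortical genes 4 were below 0, where 44.9% of all genes were, and the median of the 8 was 0.05.

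*Skor2*, a corepressor of Purkinje cells that fell under the filter, had 0.462 ± 0.122 FPKM in *Norad*-/- and 0.840 ± 0.0839 in *Norad*+/+ brain (SD, n = 3 each), with no overlap. It was picked after its values were seen and was not tested.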
